A study of Homo sapiens with 14 samples.

Results

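The transcriptomes of OVCAR4 cells treated with small interfering RNA (siRNA) against WT1 and against PAX8 were compared directly, without passing through a control. OVCAR4 is an established human line of high-grade serous ovarian cancer, and an siRNA is a short duplex that lowers the RNA it matches. The comparison used 4 of the 14 RNA-sequencing libraries of the series: 2 from cells given the WT1 pool (siWT1) and 2 from cells given the PAX8 pool (siPAX8), chosen by the pool named in each title. All genes that passed a filter on low counts entered, 21032 in number, and differences are given as siWT1 minus siPAX8, so a positive log2 fold change means a higher level with the WT1 pool. In both groups 300000 cells had been reverse transfected with 120 nM of a Dharmacon ON-TARGETplus pool, refed after 24 hours and harvested after 72 hours. No untreated cells took part, and the guide sequences are not given in the sources used here. The groups siNT1 and siNT2, each with 2 libraries and a different non-targeting pool, are used below as the 4 control libraries that show on which side a difference lies. All groups come from 1 cell line and each factor was targeted by 1 pool. Whether replicate libraries stem from independent transfections is not labelled. The p-values therefore measure only their spread, which may be technical.

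PAX8 is a paired-box transcription factor of the developing thyroid, kidney and Mullerian duct, the tissue that gives rise to the oviduct and uterus. It is retained in serous ovarian cancer, where it is used as a diagnostic marker and is known as a dependency of many cell lines. WT1 is a zinc-finger transcription factor of kidney, gonad and mesothelium and is also a diagnostic marker of serous carcinoma. The series title refers to master regulators of cancer types.

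Sequencing depth was even: counts assigned to genes summed to 49803860 and 45765500 in siPAX8, 48562687 and 48043323 in siWT1, and 40832825 to 49059114 in the controls. Pearson's r of log2 levels between libraries was taken over the 14009 tested genes above a cutoff on mean level. It was 0.9955 within siPAX8, 0.9947 within siWT1 and 0.9225 to 0.9243 between them. Mitochondrially encoded genes took 10.3% and 9.27% of the counts in siPAX8, 9.29% and 7.91% in siWT1 and 5.34 to 6.13% in the controls. Ribosomal RNA took 1.58% and 1.36% in siPAX8, 0.877% and 0.66% in siWT1 and 0.612 to 0.712% in the controls. The part of these shares in the results was not tested. The epithelial marker list, with 10 of 10 members tested, summed to 11500 and 9020 CPM (counts scaled to the library size and to a fixed total) in siPAX8, 4280 and 4050 in siWT1 and 4510 to 5280 in the controls. The neural marker list, with 5 of 10 members tested, summed to 113.0 and 106.0 CPM in siPAX8, 65.1 and 71.0 in siWT1 and 85.1 to 104.0 in the controls. Its members MAP2, at 56.4 and 50.6 CPM in siPAX8 and 20.6 and 16.1 in siWT1, and TUBB3 made up most of the sums, while NEFL, NEFM, DCX and ELAVL4 were at 0 in all 4 libraries compared. The leukocyte marker PTPRC was at or below 0.0891 CPM in each of them.

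The targeted transcripts came first, as a check on the labels. PAX8 (ENSG00000125618.16, chromosome 2 at 113215997 to 113278950, hg38, minus strand) stood at 32.8 and 38.3 CPM in siPAX8, 112.3 and 117.5 in siWT1 and 191.8 to 225.1 in the controls. The 3 sets did not overlap, and the siWT1 libraries lay between the other sets. As a share of the control mean, PAX8 was at 17.4% in siPAX8 and 56.1% in siWT1, so the comparison sets a strong loss of PAX8 against a partial loss. Between the pools, PAX8 differed by a log2 fold change of 1.69 ± 0.09 (SE, n = 2 libraries a group; adjusted p = 5.87e-12). Each adjusted p here is from the quasi-likelihood test of edgeR, adjusted by Benjamini and Hochberg's method over all genes tested. Genes with an adjusted p below 0.05 count as called.

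WT1 (ENSG00000184937.13, chromosome 11 at 32387775 to 32435630, minus strand) was scarce before any knockdown. Its counts were 10 and 12 in siPAX8, 0 and 1 in siWT1, and 14, 22, 21 and 18 in the controls. The single count in siWT1 corresponds to 3.99% of the siPAX8 level, with 0.0967 to 24.7% as the exact 95% interval, and to 2.41% of the control level (0.0601 to 13.8%). The intervals cover counting error only. The fitted log2 fold change of WT1 was -4.30 ± 0.84 (adjusted p = 0.000228), but it was -3.47 without siWT1 replicate 1 and -6.46 without siWT1 replicate 2, and remained called in both cases. With 75 counts of WT1 over the 4 controls, the change in WT1 itself is measured on few reads. Whether the differences given below for siWT1 act through WT1 was not tested, and siWT1 names the pool. SOX17, an endoderm and Mullerian factor, was at 77.9 and 82.9 CPM in siPAX8 against 105.5 and 128.3 in siWT1 (log2 fold change 0.54 ± 0.10, adjusted p = 0.00019). MECOM, a zinc-finger factor amplified in ovarian cancers, was at 97.8 and 97.6 CPM in siPAX8 and 104.1 and 100.2 in siWT1, a log2 difference of 0.06 ± 0.15 that did not pass (adjusted p = 0.731). Whether the counting used strand is not given in the sources used here, so antisense genes that overlap PAX8 and WT1 may share their reads.

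**Figure D1:**
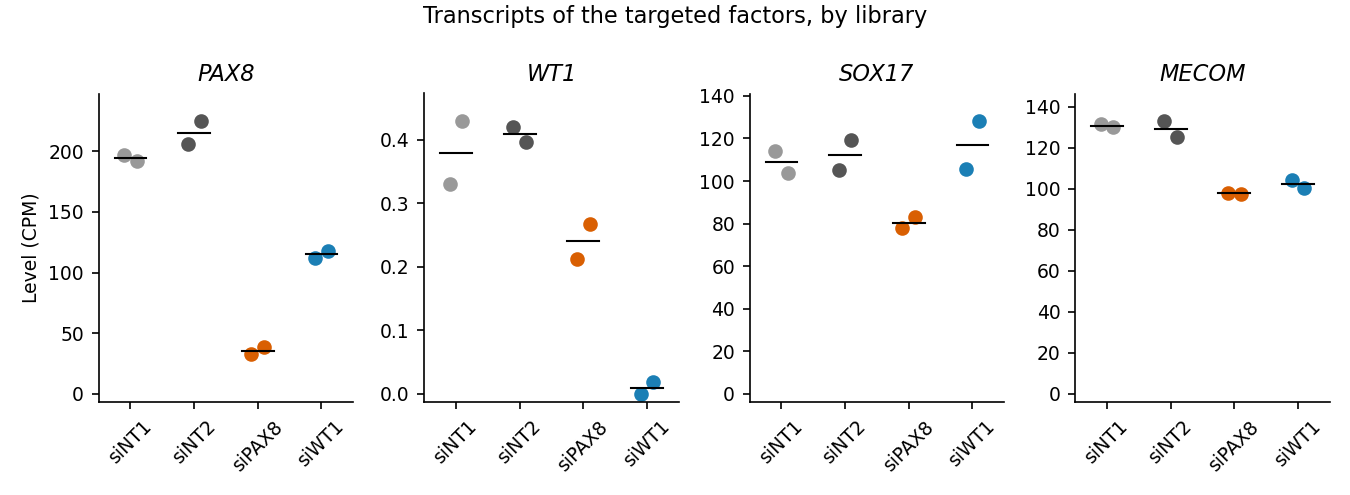
Levels of PAX8, WT1, SOX17 and MECOM in CPM, by library, in siNT1, siNT2, siPAX8 and siWT1; points are libraries and bars are means of 2. PAX8 lies at 32.8 to 38.3 CPM in siPAX8 and at 112.3 to 117.5 in siWT1, and WT1 has 1 count in all in siWT1.

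The pools differed in most of the genes measured. Of 21032 genes tested, 12065 (57.4%) were called, 5855 (27.8%) higher and 6210 (29.5%) lower in siWT1 than in siPAX8. Called genes with at least a 2-fold difference numbered 1789 higher and 2503 lower, and at least 4-fold 319 and 717. In 12048 of the called genes the libraries of the groups did not overlap, as they also did not in 16136 of all tested genes. Against the same 4 controls, 5653 genes were higher (26.9%) and 5336 lower (25.4%) in siPAX8, and 3713 higher (17.7%) and 4171 lower (19.8%) in siWT1. Those comparisons share the control libraries with each other and share the knockdown libraries with the direct comparison, so their values are given side by side only. In bulk RNA, fewer cells of a kind and less RNA per cell cannot be told apart. Libraries were scaled by TMM, a trimmed mean of log ratios. On plain library totals, without TMM, the median of all genes shifted from -0.006 to 0.164 and the split became 7647 higher and 4743 lower, 61.7% of calls higher against 48.5%.

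CSF1R, the receptor for the macrophage growth factor CSF1, was among the genes with the largest decreases (chromosome 5 at 150053291 to 150113372, minus strand). It was at 21.8 and 19.2 CPM in siPAX8, 0.438 and 0.517 in siWT1 and 3.43 to 4.29 in the controls. The siPAX8 libraries lay above every control library and the siWT1 libraries below every one, a 42.7-fold difference between the pools (log2 fold change -5.42 ± 0.21, adjusted p = 2.31e-13). The same arrangement held for TGM2, SLCO2A1 and ARSJ. TGM2, a transglutaminase that crosslinks proteins of the matrix, was at 761.2 and 822.3 CPM in siPAX8, 24.65 and 33.3 in siWT1 and 59.4 to 124.0 in the controls. The leukocyte marker list, of which CSF1R is 1 of 4 members tested of 10, summed to 60.9 and 54.0 CPM in siPAX8. Its sums were 10.8 and 12.5 CPM in siWT1 and 22.6 to 27.3 in the controls. CD68 made up most of the sums of both pools, at 38 and 33.8 CPM in siPAX8 and 9.3 and 11 in siWT1. PTPRC was near 0 as given above. SLCO2A1, a prostaglandin transporter, differed by a log2 fold change of -4.94 ± 0.24, and ARSJ, an arylsulfatase, by -4.91 ± 0.22.

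Other protein-coding genes among the largest decreases combined high levels in siPAX8 with siWT1 levels near or below the controls. ANGPTL4, a secreted inhibitor of lipoprotein lipase, was at 13.4 and 15.1 CPM in siPAX8 against 0.419 and 0.632 in siWT1 and 0.638 to 1.19 in the controls. IL1B, the cytokine interleukin-1 beta, was at 8.37 and 11.1 CPM in siPAX8 and 0.5525 and 0.364 in siWT1, within the control range of 0.3535 to 0.638. RSPO3, a secreted enhancer of Wnt signalling, was at 4.44 and 4.43 CPM in siPAX8 and at 0.248 and 0.211 in siWT1, again within the range of the controls. JPH2, a junctophilin that couples membranes in muscle, was lower in siWT1 than in the controls as well as lower than in siPAX8 (-4.30 ± 0.14). FOXS1, a forkhead factor, FILIP1L and LIPH, a phospholipase, differed by log2 fold changes of -4.51, -4.25 and -4.22. These genes, and CSF1R, TGM2, SLCO2A1 and ARSJ, carried adjusted p-values at or below 4e-09, and each kept its call with each of the 4 libraries left out in turn.

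At the other end stood KLHL14, a member of the kelch-like family known as a PAX8-associated gene of thyroid and kidney (ENSG00000197705.9, chromosome 18 at 32672671 to 32773062, minus strand). It was at 0.658 and 0.334 CPM in siPAX8, 21.9 and 20.8 in siWT1 and 22.2 to 28.7 in the controls. The 42.5-fold difference (5.41 ± 0.18, adjusted p = 3.74e-14) therefore lay on the siPAX8 side, and the siWT1 value against the controls did not pass (-0.22, adjusted p = 0.0775). FGF18, a fibroblast growth factor, was at 2.53 and 2.38 CPM in siPAX8, 44.1 and 41.6 in siWT1 and 59.4 to 76.5 in the controls, so both pools were lower than the controls and siPAX8 far lower (4.12 ± 0.14, adjusted p = 3.74e-14). CA2, a cytosolic carbonic anhydrase, was at 6.37 and 9.07 CPM in siPAX8 against 74.8 and 75 in siWT1 and 62.6 to 78.4 in the controls.

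Further genes of this group were E2F2, an activating E2F factor of the cell cycle (3.03 ± 0.16), CDCA7, a cell-cycle gene (2.84 ± 0.13), PRRX2, a homeobox factor (2.87 ± 0.13), and TXK, a kinase of the Tec family (3.63 ± 0.32). ARHGAP19, a GTPase-activating protein, and the readthrough ARHGAP19-SLIT1 shared the difference (2.97 and 2.98), but they share exons, so their reads cannot be assigned to either with certainty. In siWT1 TMEM101 spread from 3.98 to 8.77 CPM, against 0.08495 and 0.290 in siPAX8, which rest on 4 and 13 counts. Its log2 fold change of 5.09 ± 0.42 moved to 4.45 and 6.18 without siPAX8 replicates 1 and 2, and to 4.41 without siWT1 replicate 2. C2CD4A, at 0.212 and 0.713 CPM in siPAX8 and 2.08 and 5.515 in siWT1, had 3.04 ± 0.45, which moved to 2.41 and 4.14 without siPAX8 replicates 1 and 2 and to 2.18 without siWT1 replicate 2. Both kept their call in each case. UNG, which removes uracil from DNA, was on opposite sides of the controls: 7.96 and 8.18 CPM in siPAX8, 53 and 55.8 in siWT1 and 30.9 to 35.5 in the controls. So were NRARP, a feedback regulator of Notch (2.71 ± 0.18), and TMEM52 (2.69 ± 0.20).

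**Figure D2:**
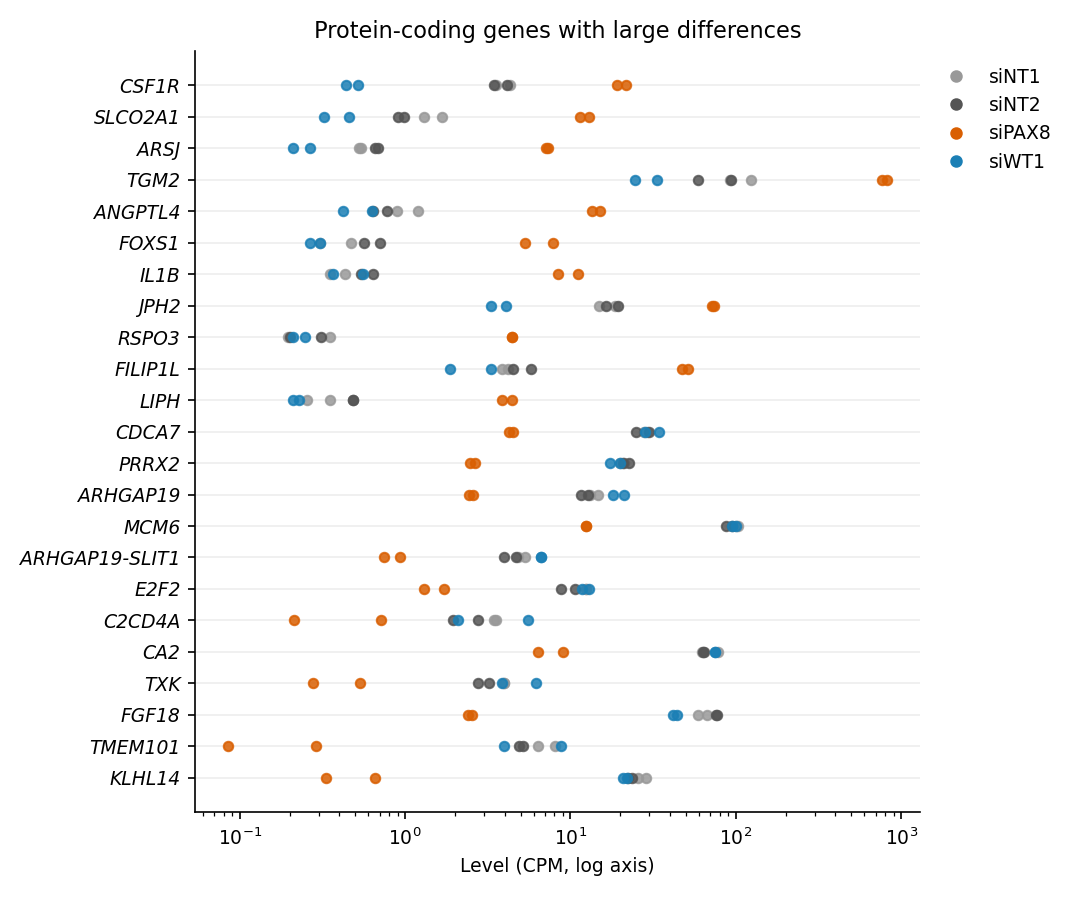
Levels in CPM (log axis) of protein-coding genes among those with the largest decreases and increases in siWT1 relative to siPAX8, in all 8 libraries of siNT1, siNT2, siPAX8 and siWT1; each point is a library. For CSF1R the siPAX8 points lie at 21.8 and 19.2 CPM and the siWT1 points at 0.438 and 0.517, while for KLHL14 the siWT1 points sit beside the controls and the siPAX8 points at 0.658 and 0.334.

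A different set of genes was moved on the siWT1 side. The rule for this set took genes whose siPAX8 libraries both lay within the range of the 4 controls and whose siWT1 libraries lay outside it, so the match of siPAX8 to the controls is part of the choice. TPM4, a tropomyosin that stabilises actin filaments, was at 1502 and 1443 CPM in siPAX8, 201.9 and 198.4 in siWT1 and 1430 to 1507 in the controls (ENSG00000167460.14, chromosome 19 at 16067021 to 16103005, plus strand). Its direct log2 fold change was -2.88 ± 0.08 (adjusted p = 7.77e-15), a 7.36-fold lower level. GPX3, a secreted glutathione peroxidase, was at 250.7 and 228.8 CPM in siPAX8, 20.3 and 35.75 in siWT1 and 220.8 to 263.4 in the controls (-3.10 ± 0.17, adjusted p = 1.21e-11). ST6GALNAC4, a sialyltransferase (-2.28 ± 0.13), NEURL1B, a ubiquitin ligase of the Notch pathway (-2.04 ± 0.13), and ANKRD52, a regulatory subunit of protein phosphatase 6 that acts on Argonaute proteins (-2.04 ± 0.10), completed the decreases.

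The increases of this kind were smaller and lay in genes of low level. GLS2, the liver-type glutaminase, was at 1.95 and 1.65 CPM in siPAX8 and 4.84 and 4.31 in siWT1 (1.34 ± 0.18, adjusted p = 4.03e-06). The polarity gene PARD6A (1.35 ± 0.21), SPSB4 (1.35 ± 0.21), PALD1 (1.39 ± 0.32) and PNPLA5 (1.45 ± 0.21) were the other 4. GAPDH, the glycolytic enzyme often used as a reference transcript, was low in siWT1 as well: it was at 3917 and 3297 CPM in siPAX8, 883.2 and 1105 in siWT1 and 3346 to 3633 in the controls (-1.86 ± 0.12, adjusted p = 1.32e-10), so the siPAX8 libraries lay on either side of the control range. GAPDH has many processed pseudogenes with which it can share reads.

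The other tropomyosins were looked up after the TPM4 value had been seen. TPM1 was at 909.0 and 810.4 CPM in siPAX8, 74.7 and 67.55 in siWT1 and 392.2 ± 21.5 (SD, n = 4) in the controls, which put the pools on opposite sides of the control mean (-3.60, adjusted p = 7.15e-15). TPM2 was at 199.6 and 172.4 CPM in siPAX8 and 90.0 and 86.3 in siWT1, and its siWT1 value against the controls did not pass (-0.21, adjusted p = 0.0844). TPM3 had the smallest direct difference of the 4 genes (-0.22, adjusted p = 0.0243). The lncRNA ENSG00000259627 lies within TPM1 on the opposite strand and had a similar direct difference (-4.04 ± 0.10), with 202.9 and 174.1 CPM in siPAX8 and 11.8 and 11.1 in siWT1. Without strand, its reads cannot be told apart from those of TPM1.

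**Figure D3:**
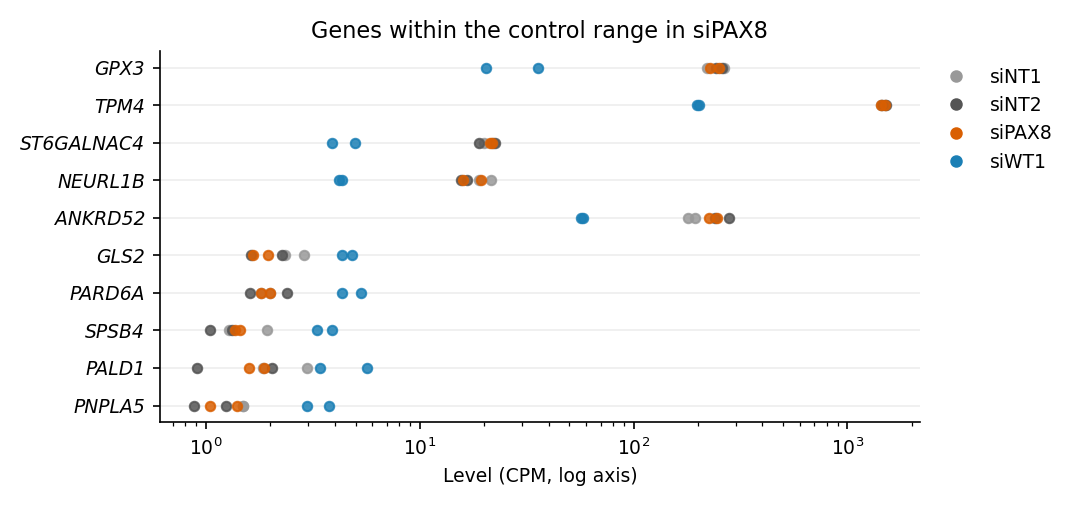
Levels in CPM (log axis) of the 5 genes lower and 5 genes higher in siWT1 whose siPAX8 libraries lay within the control range, in all 8 libraries; each point is a library. TPM4 shows 6 points between 1430 and 1507 CPM and the siWT1 points at 201.9 and 198.4.

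Genes of DNA replication were higher in siWT1 almost without exception. Of 45 members of the G1/S and DNA replication list, all tested, 44 (97.8%) were higher and 0 lower, with a median log2 fold change of 1.72, against 27.8% higher and a median of -0.006 over all genes. Members and lists were chosen with earlier results of these data known, so these counts describe the lists. Over the 14708 protein-coding genes tested, the shares were 30.5% higher and 33.1% lower, somewhat above those over all genes. The list shares below can be read against these as well. MCM6, a subunit of the replicative helicase, was at 12.4 and 12.3 CPM in siPAX8, 99.85 and 94.9 in siWT1 and 87.1 to 103.2 in the controls (2.98 ± 0.09, adjusted p = 9.57e-15). PCNA, the sliding clamp of DNA polymerases, was at 22.7 and 22.3 CPM in siPAX8, 136.7 and 138.4 in siWT1 and 141.7 to 159.1 in the controls (2.61 ± 0.08). For both genes the siWT1 libraries lay within or just below the control range and the siPAX8 libraries far below it. CCNE1, cyclin E1, which is often amplified in serous ovarian cancer, averaged 30.5 CPM in siPAX8, 129.9 in siWT1 and 125.1 in the controls (2.09 ± 0.09).

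GINS2, a subunit of the replicative helicase complex, was the exception. It averaged 7.32 CPM in siPAX8, 7.38 in siWT1 and 19.8 in the controls, and its direct difference was 0.01 ± 0.11 (adjusted p = 0.935) while the values against the controls were -1.44 and -1.42. Over the list, the median against the controls was -1.66 in siPAX8, where 45 of 45 were lower, and 0.05 in siWT1, where 6 of 45 were higher and 6 lower. Over all genes, 26.9% were higher and 25.4% lower in siPAX8 than in the controls. In siWT1 these shares were 17.7% and 19.8%.

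All 36 members of the G2/M and mitosis list were higher in siWT1, against 27.8% over all genes, with a median of 1.41 and a range of 0.43 to 2.68. CCNA2, cyclin A2, was at 16.7 and 14.9 CPM in siPAX8, 108.9 and 94.5 in siWT1 and 92.7 to 114.7 in the controls (2.68 ± 0.10, adjusted p = 1.47e-13). CDC20, the activator of the anaphase-promoting complex, was at 77.45 and 68.7 CPM in siPAX8, 308.2 and 317.9 in siWT1 and 347.4 to 394.7 in the controls (2.10 ± 0.08). Its siWT1 libraries lay just under all 4 controls (-0.22, adjusted p = 0.0177). Against the controls the list median was -1.60 in siPAX8, where 36 of 36 were lower, and -0.18 in siWT1, where 19 were lower and 1 higher. Over all genes, 25.4% were lower in siPAX8, and 19.8% were lower and 17.7% higher in siWT1. Genes of homologous recombination and the Fanconi pathway, which repair DNA breaks and crosslinks, showed the same direct direction: 24 of 24 were higher, with a median of 1.32. BLM, a helicase (2.19 ± 0.11), RAD54L, a motor protein of strand exchange (2.01 ± 0.11), and FANCD2 (1.95 ± 0.09) led, BRCA1 was at 1.43 ± 0.13 and PALB2 at the low end with 0.22.

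The promoters of these genes were examined for the letters of 2 elements known from cell-cycle genes. Many G1/S promoters carry E2F elements, and many G2/M promoters carry the cell cycle genes homology region (CHR). The window ran from 250 bases before to 50 after the RefSeq start (GRCh38.p14). The E2F search took TTTGGCGC, TTTCCCGC, TTTGCCGC and TTTCGCGC, the CHR search TTTGAA and TTCGAA, each on both strands. The promoters of E2F2 and CCNA2 are printed because these genes had the largest differences of their lists, and those of MCM6, PCNA, CDC20 and BUB1B as examples that hold matches. Capitals mark the matches, CCNA2 has none, and each sequence reads 5′ to 3′ on the strand of its gene.
E2F2, chr1:23531184-23531483, minus strand: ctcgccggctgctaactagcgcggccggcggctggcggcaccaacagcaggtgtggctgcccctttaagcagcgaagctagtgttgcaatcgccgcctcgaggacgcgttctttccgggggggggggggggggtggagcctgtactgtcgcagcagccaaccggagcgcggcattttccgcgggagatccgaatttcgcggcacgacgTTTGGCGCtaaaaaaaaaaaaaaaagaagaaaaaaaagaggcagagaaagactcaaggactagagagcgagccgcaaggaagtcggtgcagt
MCM6, chr2:135876394-135876693, minus strand: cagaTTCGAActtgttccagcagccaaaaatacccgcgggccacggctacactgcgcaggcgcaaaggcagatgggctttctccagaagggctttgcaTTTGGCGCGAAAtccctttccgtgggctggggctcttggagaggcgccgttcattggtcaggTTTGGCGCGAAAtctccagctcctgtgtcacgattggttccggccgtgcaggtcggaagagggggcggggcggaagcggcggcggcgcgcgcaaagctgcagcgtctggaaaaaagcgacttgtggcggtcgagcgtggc
PCNA, chr20:5126573-5126872, minus strand: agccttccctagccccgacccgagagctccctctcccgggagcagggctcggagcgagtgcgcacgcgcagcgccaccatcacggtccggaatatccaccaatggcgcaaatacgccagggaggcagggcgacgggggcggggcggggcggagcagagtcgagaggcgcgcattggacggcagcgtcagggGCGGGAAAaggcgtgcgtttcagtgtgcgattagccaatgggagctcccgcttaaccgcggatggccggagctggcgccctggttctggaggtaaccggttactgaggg
CCNA2, chr4:121823834-121824133, minus strand: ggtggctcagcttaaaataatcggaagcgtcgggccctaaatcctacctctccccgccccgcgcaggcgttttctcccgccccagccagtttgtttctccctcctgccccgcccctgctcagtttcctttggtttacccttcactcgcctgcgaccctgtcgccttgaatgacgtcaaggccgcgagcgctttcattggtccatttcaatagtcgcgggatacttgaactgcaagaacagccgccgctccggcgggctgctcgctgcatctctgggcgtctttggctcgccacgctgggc
CDC20, chr1:43358731-43359030, plus strand: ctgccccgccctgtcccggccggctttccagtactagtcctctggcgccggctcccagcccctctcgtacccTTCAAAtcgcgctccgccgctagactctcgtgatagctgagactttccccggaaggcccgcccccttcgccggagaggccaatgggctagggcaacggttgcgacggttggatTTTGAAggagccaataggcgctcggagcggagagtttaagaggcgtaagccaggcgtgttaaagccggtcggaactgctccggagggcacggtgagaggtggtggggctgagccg
BUB1B, chr15:40160819-40161118, plus strand: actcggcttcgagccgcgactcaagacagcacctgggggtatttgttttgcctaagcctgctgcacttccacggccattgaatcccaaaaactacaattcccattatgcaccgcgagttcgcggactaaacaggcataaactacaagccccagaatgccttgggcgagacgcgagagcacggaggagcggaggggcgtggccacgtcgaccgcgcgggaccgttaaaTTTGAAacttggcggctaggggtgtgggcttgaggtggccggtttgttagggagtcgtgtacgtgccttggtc

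E2F2 has 1 E2F match, from -42 to -35. In MCM6 the E2F letters begin at -152 and -90 from the start base, and each of these runs also holds an overlapping match on the other strand, beginning at -148 and -86. The single capital run of MCM6 nearest the 5′ end is a CHR match. PCNA has 1 E2F match, from -59 to -52. CDC20 has CHR matches at -178 and at -65, and BUB1B, a spindle checkpoint kinase gene (direct log2 fold change 1.90 ± 0.09), has its CHR match at -23. An E2F match lay in 22 of the 38 G1/S promoters that could be read (57.9%), against 5.14% of promoters of protein-coding genes tested and 3.33% of all 27305 promoters. A CHR match lay in 19 of 30 G2/M promoters (63.3%), against 11.3% and 16.6%. The other way round, G2/M promoters held the E2F letters in 3 of 30 (10.0%) and G1/S promoters the CHR letters in 2 of 38 (5.26%). Of the 21 repair promoters, 5 held an E2F match (23.8%) and 2 a CHR match (9.52%). The windows of CCNA2, BLM and RAD54L held no match to these letters. These are counts of letters and not of bound sites.

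The CDK inhibitors and p53 targets had 8 of 24 members higher and 8 lower (33.3% each), near the shares over all genes of 27.8% and 29.5%. CDKN1A, which encodes the inhibitor p21, was at 24.5 and 28.1 CPM in siPAX8, 7.77 and 9.17 in siWT1 and 8.42 to 10.0 in the controls (-1.63 ± 0.12, adjusted p = 9.16e-10). SESN2, a stress-responsive regulator of mTORC1, was lower as well (-1.54 ± 0.09). CDKN1C, which encodes the inhibitor p57, was at 2.76 and 2.54 CPM in siPAX8 and 6.67 and 7.31 in siWT1 (1.40 ± 0.19), and MDM2, the ubiquitin ligase of p53, was higher by 1.30 ± 0.11. The inhibitors CDKN1A and CDKN1C thus lay in opposite directions.

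Genes of the inflammatory list were mostly lower in siWT1. Of 26 members of this cytokine and chemokine list tested out of 28, 19 (73.1%) were lower and 0 higher. The share over all genes was 29.5% lower, and the list median was -1.20. PTGS2, a member that encodes the enzyme cyclooxygenase 2, was at 1.44 and 2.41 CPM in siPAX8 and 0.0762 and 0.115 in siWT1 (-4.29 ± 0.41, adjusted p = 4.34e-08). IL11, a cytokine of the IL-6 family, was at 21.5 and 22.4 CPM in siPAX8, 1.105 and 1.32 in siWT1 and 1.5 to 3.02 in the controls. For CXCL8, interleukin-8, the mean was 220.6 CPM in siPAX8, 34.3 in siWT1 and 158.8 in the controls, so most of its difference (-2.69 ± 0.30) lay on the siWT1 side. Against the controls, 12 members were higher and 5 lower in siPAX8, and 1 higher and 15 lower in siWT1. The shares over all genes were 26.9% and 25.4% in siPAX8, and 17.7% and 19.8% in siWT1.

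Angiogenic factors gave 19 of 27 lower (70.4%) and 3 higher (11.1%), against 29.5% and 27.8% over all genes, with a median of -1.62. FGF1 was at 19.1 and 18.8 CPM in siPAX8 and 1.70 and 0.651 in siWT1 (-4.01 ± 0.21, and -4.86 without siWT1 replicate 1). The matrix protein THBS1, an inhibitor of angiogenesis, averaged 955.1 CPM in siPAX8 against 217.6 in siWT1 and 225.2 in the controls (-2.13 ± 0.14), while VEGFA differed less (-0.63 ± 0.09). Endothelial markers, 7 of 10 tested, summed to 22.2 and 20.9 CPM in siPAX8, 9.68 and 10.5 in siWT1 and 10.1 to 12.6 in the controls. Of these markers 2 were higher and 2 lower in siWT1 than in siPAX8. CDH5 made up most of the siPAX8 sums, at 12.4 and 12.6 CPM against 1.49 and 1.61 in siWT1. ESAM lay the other way, at 0.382 and 0.245 against 1.94 and 2.57. The part of these markers in the result was not tested. FGF18, PGF, a placental growth factor of the VEGF family (1.98 ± 0.29), and VEGFB (0.68 ± 0.11) were the 3 angiogenic factors that were higher. Ligands of a single family thus lay in both directions.

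Among genes linked to epithelial-mesenchymal transition, 16 of 23 (69.6%) were lower and 0 higher, with a median of -1.36. The shares over all genes were 29.5% and 27.8%. MMP2, a gelatinase, was at 29 and 41.7 CPM in siPAX8, 2.72 and 4.23 in siWT1 and 6.11 to 10.6 in the controls (-3.35 ± 0.29). TGFBI, a matrix protein induced by TGF-beta, was lower in siWT1 (-3.30 ± 0.11), and TAGLN, an actin-binding protein of smooth muscle, averaged 2048 CPM in siPAX8, 357.2 in siWT1 and 672.2 in the controls (-2.52 ± 0.18). VIM, the intermediate filament vimentin (-0.02 ± 0.19), and CDH2, N-cadherin (-0.17 ± 0.13), did not pass. The fibroblast marker list, with 9 of 10 members tested, summed to 88.0 and 83.9 CPM in siPAX8, 80.9 and 108.0 in siWT1 and 86.5 to 105.0 in the controls. Of its members 5 were lower and 2 higher (median -1.36), with COL1A1 at 65.3 and 64.6 CPM in siPAX8 and 23.9 and 26.8 in siWT1 and FBLN1 at 17 and 16.9 against 54.3 and 79.1. The part of these markers in the result was not tested. Of the 23 transition genes, 16 were higher and 1 lower in siPAX8 than in the controls, and 14 were lower and 0 higher in siWT1. The shares over all genes were 26.9% and 25.4% in siPAX8, and 19.8% and 17.7% in siWT1.

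TGF-beta response genes numbered 15 of 25 lower (60.0%) and 3 higher (12.0%), against 29.5% and 27.8% over all genes (median -0.87). PMEPA1, a feedback inhibitor of the pathway, was at 201.0 and 181.6 CPM in siPAX8, 25.15 and 24.3 in siWT1 and 33.35 to 42.3 in the controls (-2.95 ± 0.12). The ligand TGFB2 was lower in siWT1 than in siPAX8 (-1.99 ± 0.10) but higher than in the controls (0.41, adjusted p = 0.0015), and the signal transducer SMAD3 was higher in siWT1 than in siPAX8 (1.04 ± 0.09). Targets of YAP and TEAD, the effectors of the Hippo pathway, gave 18 of 26 lower (69.2%) and 6 higher (23.1%). The receptor tyrosine kinase AXL (-2.67 ± 0.14) and F3, tissue factor (-2.52 ± 0.13), led the decreases, and the factor TEAD4 was higher (0.91 ± 0.09).

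For basement membrane, collagen and integrin genes the counts were 22 of 30 lower (73.3%) and 2 higher (6.67%), with a median of -0.65. The shares over all genes were 29.5% and 27.8%. ITGA2, an integrin subunit of collagen receptors, was at 34.0 and 57.3 CPM in siPAX8, 2.57 and 3.10 in siWT1 and 3.77 to 6.105 in the controls (-4.01 ± 0.21). HSPG2, which encodes the basement membrane proteoglycan perlecan, was at 1469 and 1298 CPM in siPAX8, 314.7 and 285.7 in siWT1 and 795.4 to 1052 in the controls (-2.20 ± 0.13), again with the pools on opposite sides. LAMA1, a laminin chain, went the other way (1.64 ± 0.15).

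EGF receptor ligands and MAPK feedback genes were 16 of 28 lower (57.1%) and 5 higher (17.9%), against 29.5% and 27.8% over all genes (median -0.34). HBEGF, a ligand of the EGF receptor, was at 363.3 and 296.6 CPM in siPAX8 and 32.0 and 27.15 in siWT1, which lay within or just above the control range of 24.5 to 30.7 (-3.48 ± 0.12, adjusted p = 4.82e-14). TGFA, another ligand, was lower (-2.71 ± 0.17) and also below the controls in siWT1, as was the early response gene IER3 (-2.85 ± 0.10). ERBB3, a receptor that pairs with ERBB2, was at 25.8 and 26.9 CPM in siPAX8 and 93.4 and 89.8 in siWT1, above the control range of 54.15 to 68.9 (1.8 ± 0.08). HBEGF and TGFA therefore lay in the opposite direction to this receptor. Without TMM the list counted 7 higher and 12 lower.

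**Figure D4:**
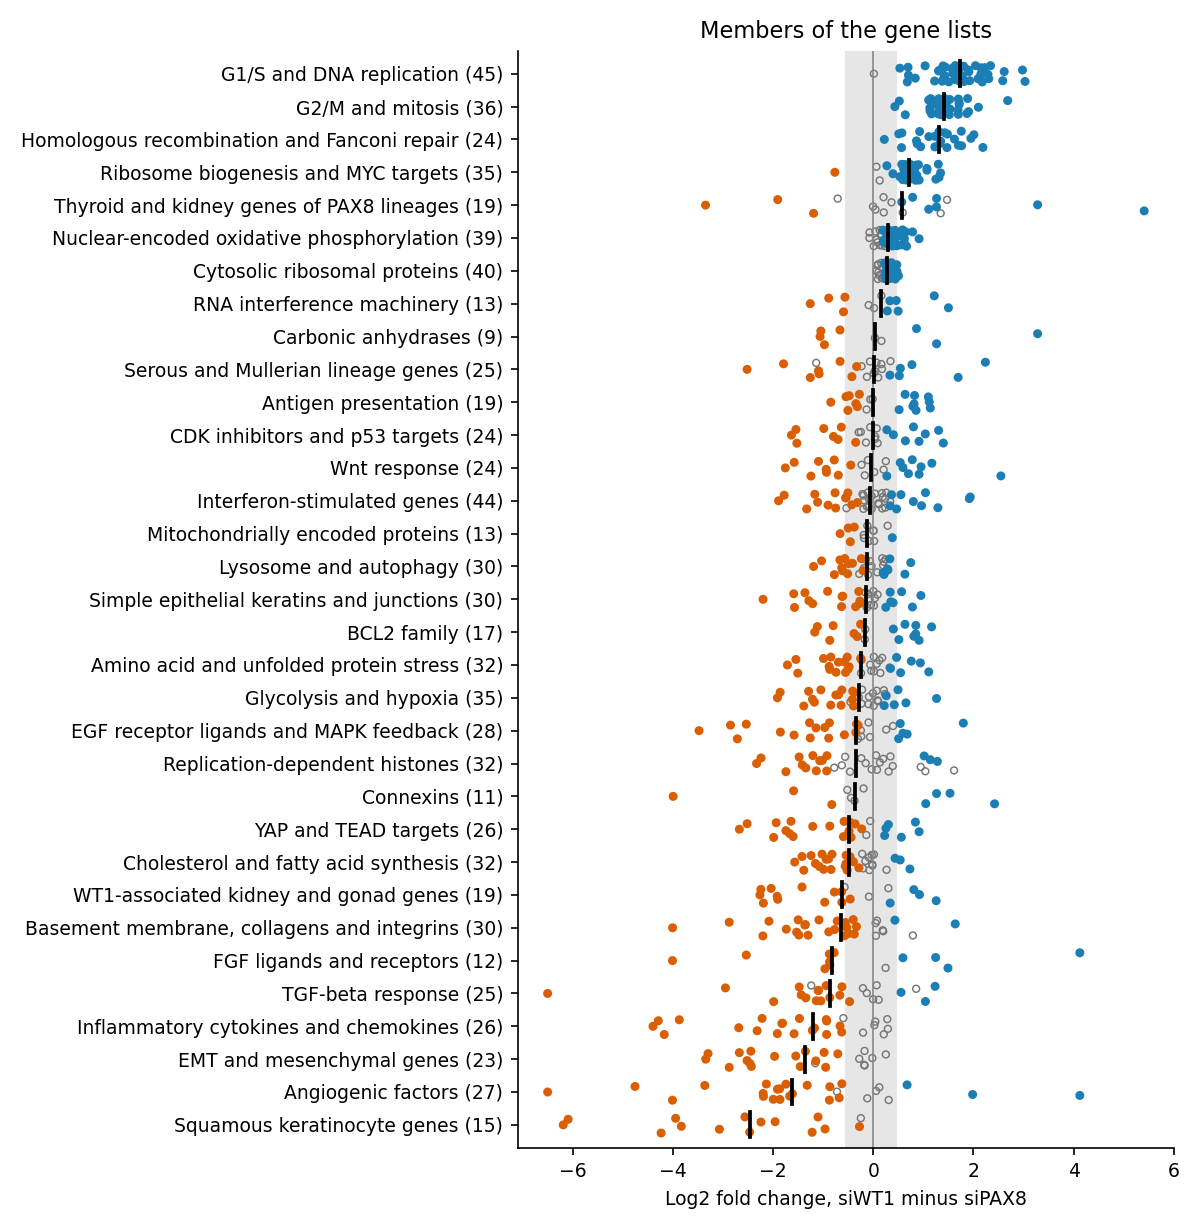
Log2 fold changes (siWT1 minus siPAX8) of the tested members of each gene list, with the number tested in brackets; filled points passed an adjusted p of 0.05 (blue higher, orange lower in siWT1), open points did not, black bars are medians, and the grey band is the interquartile range of all 21032 genes, -0.54 to 0.46. Replication and mitosis members lie to the right of 0, and 14 of 15 squamous members are filled to the left, where the value of S100A8 is a fitted one on 0 counts in siWT1.

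Squamous keratinocyte genes had the lowest median of the lists, -2.47, with 14 of 15 tested members lower (93.3%) and 0 higher. The shares over all genes were 29.5% and 27.8%. Of the 24 listed genes, 9 did not pass the count filter. Libraries of any group could meet that filter, so a gene near 0 elsewhere could enter through a group where it was high. S100A8, for example, had 4 counts over all the controls. The share and the median of this list are therefore partly shaped by the filter. KRT17, a keratin of stressed and squamous epithelium, averaged 1590 CPM in siPAX8, 335.9 in siWT1 and 347.0 in the controls (-2.24 ± 0.18), and KRT6A 44.1, 2.86 and 4.39 (-3.95 ± 0.23). TP63, the master factor of squamous epithelium, was low throughout, at 1.15 CPM in siPAX8, 0.134 in siWT1 and 0.234 in the controls (-3.07 ± 0.42). KRT6B had 136 counts in siPAX8 and 2 in siWT1, a level of 1.29% of that in siPAX8 (exact 95% counting interval 0.155 to 4.76%). Its fitted value of -6.09 moved to -5.18 without siWT1 replicate 1 and -9.08 without siWT1 replicate 2. S100A8, a calcium-binding protein of inflamed epithelium, had 18 counts in siPAX8 and 0 in siWT1. Its exact 95% counting interval reached up to 20.0% of the siPAX8 level, and the list median includes the fitted value of this gene. The keratins KRT6A, KRT6B, KRT16 and KRT17 are close paralogs, and counting could split reads between them.

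Simple epithelial keratins and junction genes were mixed, with 14 of 30 lower (46.7%) and 7 higher (23.3%), against 29.5% and 27.8% over all genes. Without TMM, 9 were called each way. KRT8, the keratin of simple epithelia, was at 4321 and 3187 CPM in siPAX8, 1319 and 1179 in siWT1 and 1279 to 1562 in the controls (-1.59 ± 0.14, adjusted p = 8.96e-09). The tight-junction gene CLDN1 was at 591.4 and 600.9 CPM in siPAX8 and 138.4 and 121.1 in siWT1, below the control range of 203.9 to 240.9 (-2.20 ± 0.09). CLDN3, another claudin, was higher (0.95 ± 0.11), and EPCAM, an epithelial adhesion molecule, was at 207.8 and 221.3 CPM in siPAX8 and 232.4 and 222.6 in siWT1 (0.08 ± 0.07, adjusted p = 0.338). Without TMM the EPCAM value was 0.25 and passed (adjusted p = 0.0062). The sums of the epithelial marker list given above were higher in siPAX8 than in the controls and in siWT1, and their part in these differences was not tested. The keratins KRT7, KRT8 and KRT18 made up most of the sums of both pools. Of the 10 members of that list, 8 were lower in siWT1 than in siPAX8, and 1, CLDN3, was higher.

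Lineage genes were called in both directions, at shares not far from those over all genes (27.8% higher and 29.5% lower). Of 25 serous and Mullerian genes tested, 6 (24.0%) were higher, PAX8 and SOX17 among them, and 8 (32.0%) lower, against 8 and 6 without TMM. MUC16, the source of the tumour marker CA125, was at 285.2 and 305.7 CPM in siPAX8, 84.8 and 85.8 in siWT1 and 142.1 to 229.6 in the controls, with the pools on opposite sides (-1.79 ± 0.16, adjusted p = 1.28e-08). SPP1, the secreted protein osteopontin, showed the same arrangement: 148.2 and 135.9, 23.7 and 25.8, and 63.3 to 78.5 CPM (-2.52 ± 0.10). HOXA9, a homeobox factor of the oviduct, was higher in siWT1 (0.77 ± 0.14).

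Thyroid and kidney genes of PAX8 lineages gave 7 of 19 higher (36.8%, against 27.8% over all genes) and 3 lower (15.8%, against 29.5%), with KLHL14, CA2 and CA12 at the top. CA12, a membrane carbonic anhydrase, was at 16.05 and 19.5 CPM in siPAX8, 39.7 and 45.5 in siWT1 and 86.3 to 130.7 in the controls (1.26 ± 0.10), so it was lower than the controls with both pools. AQP1, a water channel of the proximal tubule, was lower in siWT1 (-3.35 ± 0.17), as was WNT4, a ligand of kidney and gonad development (-1.91 ± 0.16).

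Genes associated with WT1 in kidney and gonad were 12 of 19 lower (63.2%) and 4 higher (21.1%), against 29.5% and 27.8% over all genes (median -0.63). SULF1, a heparan sulfatase, was at 19.9 and 21.3 CPM in siPAX8, 4.48 and 4.10 in siWT1 and 3.39 to 4.55 in the controls, so its decrease (-2.26 ± 0.12) was measured against a siPAX8 level above the controls. BASP1, described as a corepressor of WT1, was higher (0.92 ± 0.09), with siPAX8 at 43.5 and 46.8 CPM. Its siWT1 libraries lay just under all 4 controls (-0.20, adjusted p = 0.0371). PDGFA, a growth factor of mesenchyme, was on opposite sides: 13.4 and 12.5 CPM in siPAX8, 2.80 and 2.85 in siWT1 and 7.425 to 8.32 in the controls. Over the list the median against the controls was 0.62 in siPAX8 and 0.04 in siWT1. Mesothelial markers, 8 of 10 tested and WT1 among them, were 6 lower and 1 higher and summed to 99.1 and 61.3 CPM in siPAX8, 46.6 and 37.7 in siWT1 and 123.0 to 156.0 in the controls, and their part in these results was not tested.

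Wnt response genes were called in 9 of 24 cases each way (37.5%), against 27.8% higher and 29.5% lower over all genes. The ligand WNT7A was at 51.2 and 54.7 CPM in siPAX8, 103.9 and 101.2 in siWT1 and 198.7 to 224.5 in the controls, a direct log2 fold change of 0.95 ± 0.09 between pools that were both below the controls. SFRP1, a secreted Wnt antagonist, was lower (-1.76 ± 0.09). Among FGF ligands and receptors, 7 of 12 were lower (58.3%) and 4 higher (33.3%). The receptor FGFR4 was higher (1.49 ± 0.09) and FGFRL1, a receptor without a kinase domain, was at 59.4 and 62.7 CPM in siPAX8 and 9.98 and 11.1 in siWT1, a difference (-2.54 ± 0.10) that lay mostly below the control range of 45.25 to 53.7. Among connexins, the gap-junction channel proteins, 4 of 11 were higher (36.4%) and 3 lower (27.3%), near the shares over all genes. GJB2 was at 15.5 and 14.8 CPM in siPAX8 and 87.3 and 75 in siWT1 (2.42 ± 0.10), and GJA5 at 1.85 and 1.58 against 0.0572 and 0.153 (-4.00 ± 0.40, and -4.84 without siWT1 replicate 2).

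**Figure D5:**
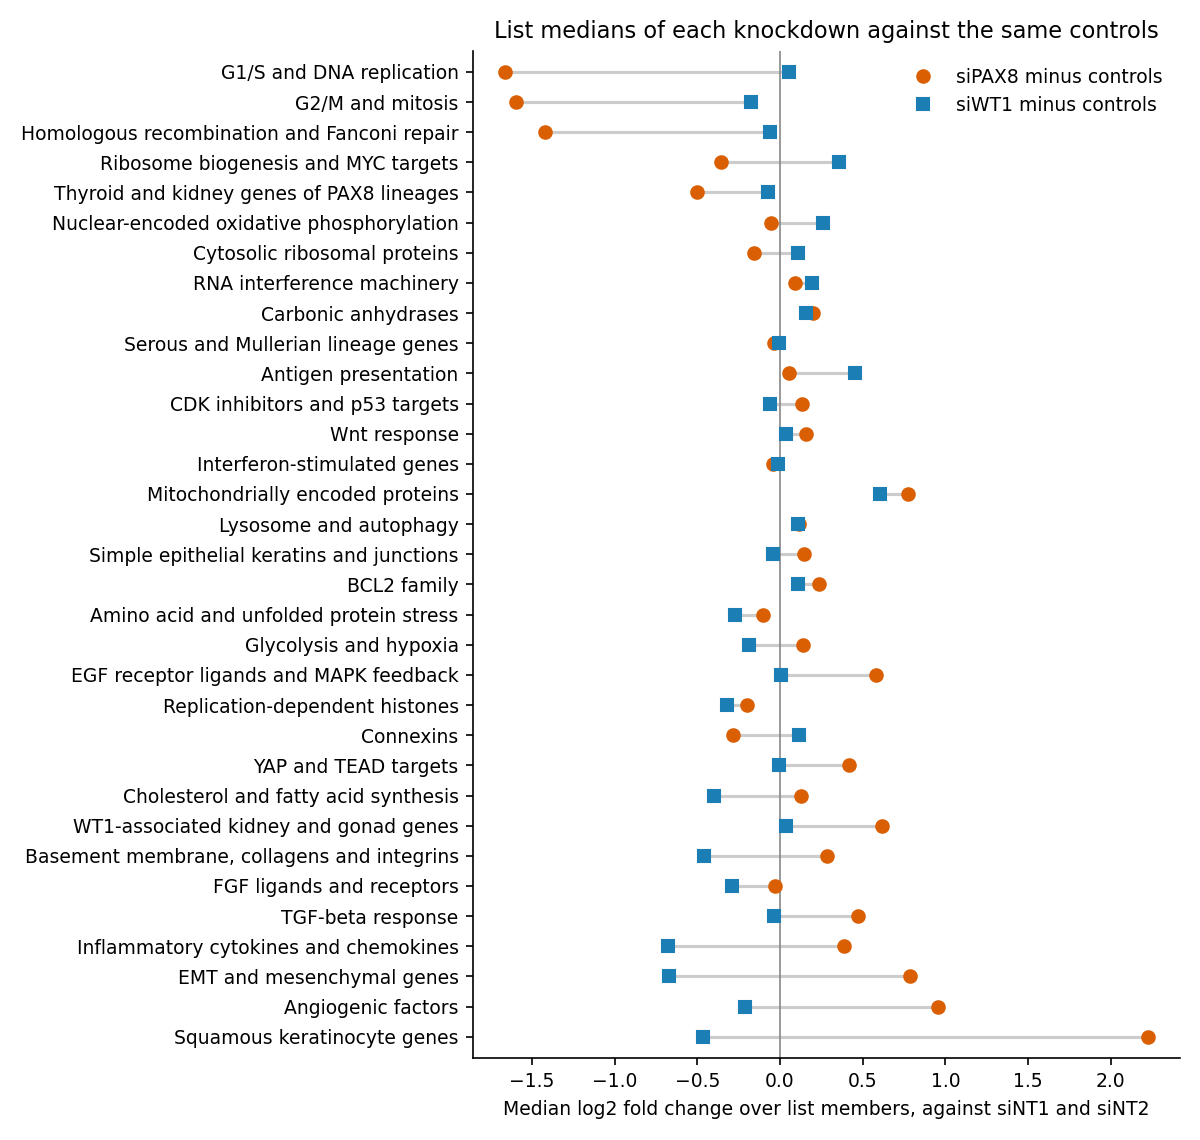
Median log2 fold change of the tested members of each list in siPAX8 (circles) and siWT1 (squares), each against the same 4 control libraries; the lists are in the order of their direct medians. For G1/S and DNA replication the medians are -1.66 and 0.05, and for squamous keratinocyte genes 2.22 and -0.47, while mitochondrially encoded genes have 0.77 and 0.60.

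Lipid synthesis genes were lower in siWT1. In the cholesterol and fatty acid list 19 of 32 (59.4%) were lower and 3 higher (9.38%), against 29.5% and 27.8% over all genes, with a median of -0.49. DHCR7, a sterol reductase of the last steps of cholesterol synthesis, was at 325.7 and 279.9 CPM in siPAX8, 113.2 and 118.3 in siWT1 and 237.1 to 268.4 in the controls (-1.39 ± 0.09, adjusted p = 2.37e-10). The siWT1 libraries lay below all 4 controls and the siPAX8 libraries above them. The fatty acid elongase ELOVL6 was lower too (-1.42 ± 0.10), and the desaturase FADS1 was higher (0.73 ± 0.08). Against the controls, 22 members of the list were lower and 2 higher in siWT1, and 7 were lower and 14 higher in siPAX8. Over all genes the shares were 19.8% lower and 17.7% higher in siWT1, and 25.4% lower and 26.9% higher in siPAX8.

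Glycolysis and hypoxia genes were 16 of 35 lower (45.7%) and 6 higher (17.1%), against 29.5% and 27.8% over all genes. Without TMM the counts were 16 and 11. ADM, the vasodilator peptide adrenomedullin, was lower (-1.91 ± 0.12), and PKM, pyruvate kinase, was higher (0.49 ± 0.09). Amino acid and unfolded protein stress genes were also 16 lower, of 32, and 6 higher. SLC7A5, a transporter of large neutral amino acids, was at 860.1 and 952.6 CPM in siPAX8, 323.9 and 313.9 in siWT1 and 557.0 to 611.9 in the controls (-1.51 ± 0.09). PHGDH, the first enzyme of serine synthesis, was at 149.4 and 135.0 CPM in siPAX8, 250.5 and 295.2 in siWT1 and 336.9 to 376.5 in the controls (0.94 ± 0.10). Without TMM this stress list was split 12 higher and 12 lower.

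Ribosome biogenesis and MYC target genes were 32 of 35 higher (91.4%) and 1 lower (2.86%), against 27.8% and 29.5% over all genes, with a median of 0.71. NOP56, a protein of box C/D small nucleolar particles, was at 64.9 and 63.4 CPM in siPAX8, 171.5 and 154.2 in siWT1 and 140.7 to 154.0 in the controls (1.34 ± 0.08, adjusted p = 5.75e-11). NOLC1, a nucleolar chaperone, was higher too (1.31 ± 0.09), RRP1B lower (-0.77 ± 0.08), and MYC itself averaged 56.2 CPM in siPAX8, 81.6 in siWT1 and 81.4 in the controls (0.54 ± 0.09). Against the controls, 27 of the 35 were lower in siPAX8 (25.4% over all genes) and 26 higher in siWT1 (17.7% over all genes). Cytosolic ribosomal protein genes were 28 of 40 higher and 0 lower, with small differences (median 0.27, range 0.06 to 0.50), and 40 of 40 were higher without TMM. Ribosomal RNA shares, given above, were higher in both siPAX8 libraries than in both siWT1 libraries, and their part in these counts was not tested.

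Nuclear-encoded genes of oxidative phosphorylation were 26 of 39 higher (66.7%, against 27.8% over all genes) and 0 lower (median 0.30). They were led by CYC1, cytochrome c1 (0.91 ± 0.11). Of mitochondrially encoded protein genes, 4 of 13 were lower (30.8%), near the 29.5% over all genes, and 1 was higher (7.69%, against 27.8%). Their median of -0.12 became 0.05 without TMM, where 3 were lower and 2 higher. MT-ND6, the only one of them encoded on the light strand, was at 1670 and 1645 CPM in siPAX8, 1149 and 946.2 in siWT1 and 828.1 to 1071 in the controls (-0.66 ± 0.12). Against the controls, 13 of 13 were higher in siPAX8 (26.9% over all genes) and 12 in siWT1 (17.7% over all genes).

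Interferon-stimulated genes were 10 of 44 higher and 13 lower, near the share over all genes in each direction, and 15 higher and 11 lower without TMM. HERC5, a ligase for ISG15, was at 3.865 and 3.90 CPM in siPAX8 and 13.8 and 15.9 in siWT1 (1.94 ± 0.13), whereas GBP2, a guanylate-binding protein, was at 62.65 and 63.8 against 20.1 and 16.8 (-1.78 ± 0.10). Antigen presentation genes were 9 of 19 higher (47.4%) and 7 lower (36.8%), or 3 lower without TMM, against 27.8% and 29.5% over all genes. HLA-B was at 198.6 and 233.1 CPM in siPAX8, 443.3 and 493.0 in siWT1 and 222.5 to 289.1 in the controls (1.12 ± 0.14), while TAPBP, a chaperone of peptide loading, was lower (-0.85 ± 0.10). HLA genes are polymorphic paralogs, and reads could be split among them.

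Among 13 genes of RNA interference, the machinery that the siRNAs themselves use, 6 (46.2%) were higher and 4 (30.8%) lower, against 27.8% and 29.5% over all genes. AGO1 was at 12.1 and 14.5 CPM in siPAX8, 38.8 and 36.25 in siWT1 and 37.2 to 45.6 in the controls (1.5 ± 0.11, adjusted p = 6.43e-10). AGO2, the Argonaute that cuts its target, was at 86.3 and 101.9 CPM in siPAX8, 220.7 and 216.8 in siWT1 and 150.5 to 168.8 in the controls (1.22 ± 0.10, adjusted p = 6.84e-09), with the pools on opposite sides. AGO4 (-0.89 ± 0.14) and AGO3 (-0.59 ± 0.11) lay in the other direction.

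Apoptosis regulators of the BCL2 family were 8 of 17 higher (47.1%) and 7 lower (41.2%), against 27.8% and 29.5% over all genes. BCL2L1, which encodes the anti-apoptotic BCL-XL, was at 230.9 and 205.7 CPM in siPAX8, 102.9 and 91.3 in siWT1 and 137.6 to 155.6 in the controls (-1.17 ± 0.09), and the pro-apoptotic BMF was higher (1.16 ± 0.18). The list of replication-dependent histones, genes whose main transcripts lack poly(A) tails, also holds SLBP, the stem-loop binding protein of these transcripts. Of its 32 members tested, 12 were lower (37.5%) and 3 higher (9.38%), with H2AC6 at -2.33 ± 0.13. SLBP, which is not a histone gene, was 1 of the 3 that were higher (1.02 ± 0.09). Histone genes are near-identical copies, so single members are uncertain. Lysosome and autophagy genes were 12 of 30 lower (40.0%) and 7 higher (23.3%), or 10 and 12 without TMM, with the factor TFE3 at -1.19 ± 0.08. Carbonic anhydrases were 3 of 9 higher (33.3%) and 4 lower (44.4%).

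Of the 3954 long noncoding genes tested, 687 (17.4%) were higher and 1012 (25.6%) lower, both below the shares over all genes of 27.8% and 29.5%. LINC01411 was at 15.35 and 18.4 CPM in siPAX8, 0.5525 and 0.785 in siWT1 and 2.04 to 3.93 in the controls (-4.65 ± 0.19, adjusted p = 3.56e-13), on opposite sides of the controls. LINC03033 was lower as well (-3.86 ± 0.26). LINC01127 was at 0.488 and 0.446 CPM in siPAX8, 4.02 and 3.66 in siWT1 and 6.315 to 13.3 in the controls (3.03 ± 0.29), lower than the controls with both pools. CCDC183-AS1 (2.81 ± 0.19) and DNAAF3-AS1 (2.49 ± 0.13) were higher, but they are antisense genes whose reads cannot be told apart from those of their partners.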

How the data were processed

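RNA was extracted with a NucleoSpin RNA Plus kit and sequenced on a BGI platform, per the labels' protocols. The deposited values were read counts per gene, not normalised by the authors, on hg38. STAR 2.5.1b and featureCounts 1.6.3 are named in the submitters' processing notes, and annotation release, strand setting and filters are not given in the sources used here. Of 58219 genes, 57881 matched GENCODE 29 by identifier, the source of names and positions. Genes were filtered with filterByExpr (minimum count 10, minimum total 15) of edgeR 4.0.16 in R 4.3.3, scaled by TMM and fitted in 1 quasi-likelihood model with a coefficient for each of the 7 groups (7 residual degrees of freedom, biological coefficient of variation 7.57%). Controls were the mean of siNT1 and siNT2. Standard errors were taken as the fitted log2 value divided by the root of its F statistic. The fit was tested on simulated data.

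The comparison, gene lists, motif letters and naming rule were chosen with earlier results of these data known. The rule took the 4 targeted genes. It took the 12 largest called protein-coding differences in each direction at a mean of at least 2 CPM over the 4 libraries and with libraries that do not overlap. It took 5 each way with the pools on opposite sides of the controls, 5 each way with siPAX8 within the control range, 3 long noncoding RNAs each way, up to 3 called members of each list each way, and MCM6, PCNA, CCNA2, CDC20, CDKN1A, KRT8, EPCAM and MUC16. It gave 199 genes, of which some are left unnamed, and a few items are not reported here. Further list members and TPM1, TPM2 and TPM3 were named after their values had been seen.

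Replicate numbers were not taken as pairs: deviations of same-numbered libraries correlated at 0.052 between siPAX8 and siWT1, and from -0.1 to 0.496 over all 21 pairs of groups, siNT2 with siWT1 at 0.417 and siNT1 with siPAX8 at 0.239 among them, and no shared origin is labelled. Alternatives were DESeq2 1.42.0, its size factors in edgeR, no TMM, no filter, a minimum count of 50, no mitochondrial genes, only the groups compared, a replicate block and each library left out.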

Additional observations from a re-analysis of the deposited data

How the results depend on the processing

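Counts of called genes stayed within 1.5 times of 12065 under every alternative: 11084 with DESeq2, 12067 with its size factors, 12390 without TMM, 11963 of 39104 genes without the filter, 10866 of 16549 at a minimum count of 50, 12044 without mitochondrial genes, 11432 with only the groups compared, and 10465 to 10766 with a library left out. With the replicate number as a block, for which the labels give no shared origin, 12574 were called. Of 199 named genes, 190 could be tested at a minimum count of 50 (not WT1, S100A8, KRT6B or KRT75, for example), 195 without mitochondrial genes and 196 with only the groups compared. Where tested, none reversed, and 19 changed their call under at least 1 of 12 alternatives. EPCAM gained one. Those that lost one numbered 3 with DESeq2, 2 without TMM, and 12, 3, 8 and 8 without siPAX8 replicates 1 and 2 and siWT1 replicates 1 and 2. LGR5 was at 2.55, but at 1.27 (adjusted p = 0.202) without siWT1 replicate 2 and 1.85 (adjusted p = 0.058) without siPAX8 replicate 1. The cause was not tested. Without TMM, medians changed sign in the lists of CDK inhibitors, antigen presentation, interferon, Wnt, BCL2 family, lysosome, simple epithelial and mitochondrially encoded genes. Depth limited WT1, S100A8 and KRT75, among others, at 22 counts or fewer in siPAX8. LGR5 had 2 and 8 counts there and TMEM101 had 4 and 13.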
